A study of Canis lupus familiaris with 20 samples.

Results

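The genes described here are those that macrophages and other myeloid cells use to take up, digest and kill: Fc receptors and their adaptors, cathepsins, integrins, scavenger receptors, Siglecs, oxidase subunits and antimicrobial proteins. They were chosen by the gene name that the array files give a probe, as genes of 8 name families or 1 of 23 single names. Of 42034 probes on the array, 45 probes for 40 genes met this rule, among 10266 genes named on it. Of these genes, 27 were tested and 13 were too dim to be tested. For 8 of the single names, namely CD14, CD163, ITGAX, AIF1, MRC1, PTPRC, S100A12 and MARCO, no probe carries that gene name, and CD14, ITGAX and AIF1 were therefore not measured here.

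Macrophages enter muscle after fibre damage, first clearing dead fibres and later releasing signals to satellite cells and fibroblasts. They engulf debris through Fc, complement and scavenger receptors and digest it in lysosomes with cathepsins, while the NADPH oxidase of phagocytes makes superoxide. In Duchenne muscular dystrophy, in which muscle fibres lack dystrophin and break repeatedly, macrophages are a main part of the cell infiltrate.

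Muscle RNA came from 10 dogs, each 2 years old. Escapers were 2 dogs labelled DMD escaper, a name used for dystrophic dogs with a mild course. The affected group held 4 dogs labelled DMD affected, and 4 dogs were labelled normal. Both DMD labels together are called dystrophic, with 6 dogs. The labels name neither the muscle nor the dogs' sex or allele. Each dog was hybridised on 2 arrays with the dyes swapped, against a common reference that was muscle RNA of 1 normal individual, and the labels do not say whether that was 1 of these dogs. A value for a dog is the mean of its 2 arrays, on the scale log2 of dog over reference, so that 0 means the level of the reference RNA. Spots that the scanner software called outliers were left out, so that among the 27 tested genes 4 values rest on 1 array: LGALS3 in escaper 2, CTSB in affected 3, ITGAM in normal 2 and FCGRT in normal 4. Each of the 5 slides held 2 dogs of 1 group, and both escapers shared a slide, so slide and escaper group cannot be told apart.

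On an array, 30.5% to 60.2% of probes had a dog signal that the scanner software called well above background. Affected 4 labelled with Cy5 gave the top share and a median signal of 5.28 times background, against 1.67 to 2.70 times on the other 19 arrays. Skeletal muscle fibre markers were measured for 9 of 15 genes, and their summed level on the log2 intensity scale was 17.5 to 18.8 in escapers, 17.7 to 18.6 in affected dogs and 18.6 to 18.8 in normal dogs. Of the defining macrophage markers, CD68 and TYROBP were above background on all 20 arrays, and CSF1R on 3 arrays. Probes whose description, rather than gene name, names CD163 and PTPRC were above background on 20 arrays and 0 arrays. In bulk muscle, fewer cells of a type and less RNA per cell cannot be told apart.

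The probes of 6 of the tested genes, which are not those with the largest differences, are shown so that a reader can see what was hybridised. Each is 60 bases long, given 5′ to 3′ as in the array files, with the chromosome positions of those files, whose genome build is not given in the sources used here. They are the probes of the lysosomal marker CD68, the IgG receptor FCGR1A, the shared integrin chain ITGB2, the oxidase subunit CYBB and the paired calcium-binding proteins S100A8 and S100A9.
CD68, chr5:35498642-35498701, plus strand: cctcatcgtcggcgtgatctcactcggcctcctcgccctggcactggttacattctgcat
FCGR1A, chr17:62181525-62181584, plus strand: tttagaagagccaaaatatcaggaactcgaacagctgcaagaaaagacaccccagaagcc
ITGB2, chr31:40862372-40862431, minus strand: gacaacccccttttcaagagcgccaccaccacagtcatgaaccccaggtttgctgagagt
CYBB, chrX:32518159-32518218, plus strand: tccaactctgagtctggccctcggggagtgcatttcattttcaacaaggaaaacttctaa
S100A8, chr7:46518533-46518592, plus strand: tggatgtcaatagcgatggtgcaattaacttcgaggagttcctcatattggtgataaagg
S100A9, chr7:46544282-46544341, minus strand: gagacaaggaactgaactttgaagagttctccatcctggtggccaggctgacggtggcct

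Of the tested myeloid genes, galectin-3 (LGALS3) and the phagosomal metal transporter SLC11A1 had the largest dystrophic differences from normal muscle, and their values in all 6 dystrophic dogs lay above those of all 4 normal dogs. No tested myeloid gene passed an adjusted p of 0.05 in any comparison by limma, the linear model with moderated statistics used throughout, with Benjamini-Hochberg adjustment over 16008 probes. In dystrophic against normal dogs, 0.098% of all 6121 genes tested passed, in affected against normal dogs 0.0163%, and in escapers against normal dogs and escapers against affected dogs 0%. At an unadjusted p under 0.05, 7 of the 27 genes were higher in dystrophic than in normal dogs, beside 8.9% of all genes. The 7 were LGALS3, SLC11A1, ITGAM, BPI, CTSB, CTSS and NCF4, and FCGRT was the 1 gene lower at that level, beside 9.83% of all genes. In escapers against normal dogs 13 genes were higher at that level and none was lower, beside 9.82% and 9.31% of all genes. In affected against normal dogs 5 were higher (BPI, ITGAM, LGALS3, S100A9 and SLC11A1) and 1 was lower (FCGRT), beside 6.03% and 7.01%. In escapers against affected dogs 1 was higher (ITGB2) and none was lower, beside 3.06% and 2.6%.

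The difference from normal dogs was above 0 for 24 of 27 genes in dystrophic dogs, 23 in escapers and 22 in affected dogs, beside 54.9%, 50.4% and 56.1% of all genes tested. It was above 1, which is 2-fold, for 6, 13 and 4 genes, beside 2.96%, 6.16% and 2.24% of all genes. Escapers were above affected dogs for 22 of 27 genes and by over 1 for 6, beside 46% and 2.22% of all genes. The median difference of escapers from affected dogs was 0.75, beside −0.03 over all genes. The 27 genes' median log2 difference from normal was 0.58 in dystrophic dogs, 0.91 in escapers and 0.42 in affected dogs, beside 0.04, 0.0046 and 0.05 over all genes. These medians describe the genes that could be tested, and 14 of the 27 were not above background on every normal array, so that they could enter through the dystrophic dogs. Among the other 13, which were above background on every normal array, the median difference was 0.42 in dystrophic dogs, 0.91 in escapers and 0.33 in affected dogs. Over all 40 genes with no filter on dim probes, the medians were 0.32, 0.53 and 0.23, beside 0.02, 0.0094 and 0.02 over all 10232 genes. For escapers against affected dogs the median without that filter was 0.20, beside −0.01 over all 10232 genes. Among the 13 genes above background on every normal array it was 0.76. The escaper and affected comparisons share the same normal dogs.

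Groups separated without overlap for few genes, except escapers from normal dogs. All 6 dystrophic dogs were above all normal dogs for 4 genes, LGALS3, SLC11A1, ITGAM and CTSB, beside 4.12% of all genes. The same 4 genes separated affected from normal dogs, beside 6.13% of all genes. For ITGAM and CTSB the separation rests on outlier spots left out: with those spots kept, an alternative chosen after seeing the data, LGALS3 and SLC11A1 were the 2 left in dystrophic and in affected dogs. Both escapers were above all normal dogs for 13 genes (BPI, CD68, CTSB, CTSS, CYBA, CYBB, GPNMB, ITGAM, ITGB2, LAPTM5, LGALS3, SIGLEC5 and SLC11A1), beside 14.6% of all genes, and for 12 of them, ITGAM being the exception, with outlier spots kept. Going the other way, CTSD and SIGLEC1 were below all normal dogs in both escapers, beside 16.1%, and FCGRT in all affected dogs, beside 7.24%. No gene was below all normal dogs in every dystrophic dog, beside 5.16% of all genes, and none was lower in both escapers than in all affected dogs, beside 4.84%. These counts moved with the processing: with the scanner's own processed signals 10 genes lay above normal in all affected dogs and 10 in all dystrophic dogs, and without affected 1 the counts were 12 and 10. With only the arrays that carry the dog in Cy3, where 24 genes had values, they were 1 and 0.

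**Figure D1:**
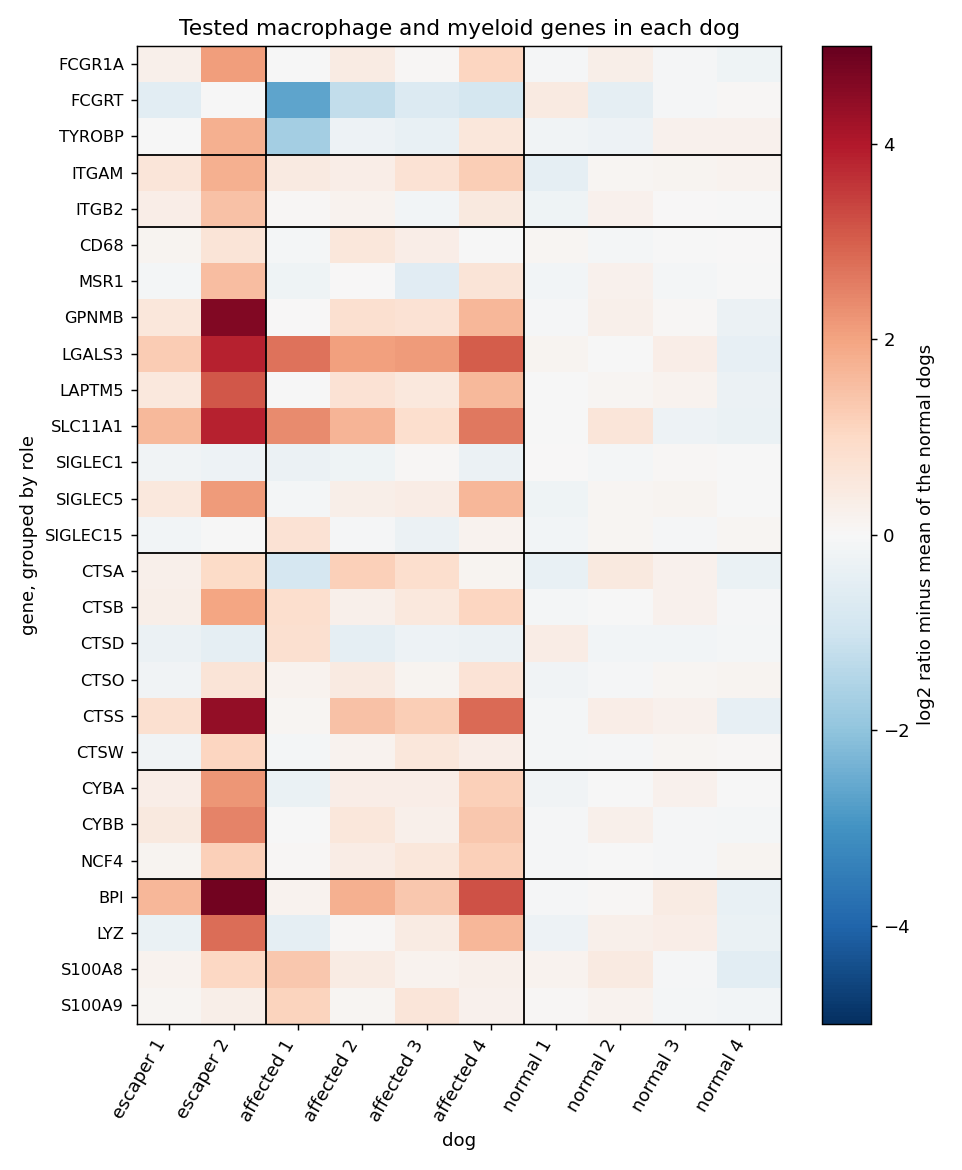
Log2 ratio of each of the 27 tested genes (rows, grouped by role as receptors and adaptor, integrins, membrane proteins, cathepsins, oxidase, and antimicrobial and S100 proteins) in each dog (columns), minus the mean of the 4 normal dogs, with red above and blue below that mean. The column of escaper 2 is the reddest, affected 4 comes next, and the rows of LGALS3 and SLC11A1 are red in all 6 dystrophic dogs.

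LGALS3 encodes galectin-3, a sugar-binding lectin that macrophages make and secrete. Its log2 ratio was −2.35 and 0.22 in escapers, −0.90, −1.55, −1.50 and −0.60 in affected dogs, and −3.49, −3.66, −3.30 and −4.03 in normal dogs. Every dystrophic dog was thus at least 0.95 log2 units above every normal dog, with escaper 1 the nearest. The mean was −1.11 ± 0.89 in the 6 dystrophic dogs and −3.62 ± 0.31 in the 4 normal dogs (SD), a 5.68-fold difference (log2 difference 2.51 ± 0.42 SE, limma adjusted p = 0.0537). Affected dogs alone differed from normal by 2.48 ± 0.48 (adjusted p = 0.125), and escapers by 2.55 ± 0.58 (adjusted p = 0.189). Between escapers and affected dogs the difference was 0.07, with a 95% interval of −1.24 to 1.38. The gene passed the threshold under several other settings: the adjusted p of the dystrophic comparison ranged between 0.0237 and 0.218 over all alternatives.

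SLC11A1, a transporter that moves iron and manganese out of the phagosome, had the second largest difference in each comparison with normal dogs. Its log2 ratio was −1.36 and 0.88 in escapers, −0.62, −1.27, −2.14 and −0.32 in affected dogs, and −2.98, −2.36, −3.24 and −3.31 in normal dogs. Affected 3 was the dystrophic dog closest to normal, 0.22 log2 units above normal 2. Dystrophic dogs were 4.48-fold above normal (log2 difference 2.16 ± 0.49 SE, limma adjusted p = 0.106). The difference was 2.73 ± 0.63 in escapers (adjusted p = 0.189) and 1.88 ± 0.52 in affected dogs (adjusted p = 0.254).

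**Figure D2:**
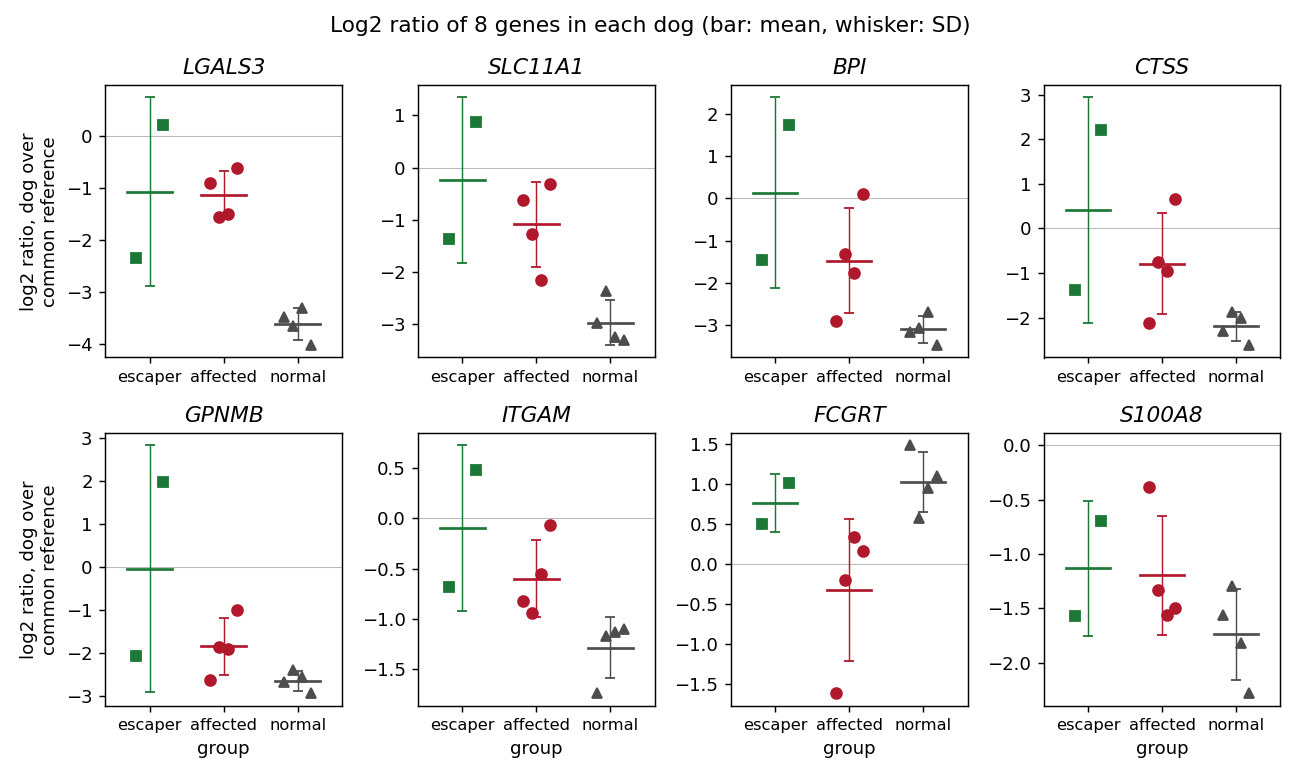
Log2 ratio of dog over common reference for 8 genes in each dog, with squares for escapers, circles for affected dogs and triangles for normal dogs, the mean as a horizontal bar and the SD as a whisker. LGALS3, SLC11A1 and ITGAM are above normal in every dystrophic dog, ITGAM with 1 outlier spot of normal 2 left out, FCGRT is below normal in every affected dog, and the 2 escapers lie far apart in BPI, CTSS and GPNMB.

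The Fc receptors and the adaptor TYROBP differed from one another. FCGR1A, the high-affinity receptor for IgG, was well above background on all 4 escaper and all 8 affected arrays and on no normal array. The normal values are thus at background. The difference in log2 ratio from normal was 1.18 ± 0.46 in escapers (limma adjusted p = 0.235) and 0.39 ± 0.38 in affected dogs (adjusted p = 0.686). The log2 ratio of FCGR1A was −0.80 and 1.01 in escapers, between −1.09 and 0.02 in affected dogs and between −1.27 and −0.76 in normal dogs. Escaper 1 therefore lay within the normal range. Escaper 2 and affected 4 were the highest dogs.

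FCGRT encodes the neonatal Fc receptor, which recycles IgG and albumin and is also found in endothelium. It was the 1 tested gene below normal in every affected dog, at −1.62, −0.20, 0.33 and 0.16, against 0.50 and 1.01 in escapers and 1.48, 0.57, 0.95 and 1.10 in normal dogs. The mean was −0.33 ± 0.89 in affected dogs and 1.02 ± 0.38 in normal dogs (SD, 4 dogs each), 2.56-fold lower (log2 difference −1.36 ± 0.40 SE, limma adjusted p = 0.271). Both escapers were above every affected dog, with escaper 1 at 0.50 and affected 3 at 0.33 the nearest. The group means differed by 1.09 ± 0.49 (adjusted p = 0.80). FCGRT was the 1 myeloid gene in which escapers and affected dogs did not overlap with escapers higher, beside 3.17% of all genes. Endothelial markers, of which 8 of 12 genes were measured, had differences above 0 in escapers against affected dogs for 8 of 8, beside 46% of all genes. Their median difference was 0.57, beside −0.03 over all genes. By dog, their median log2 ratio was 0.81 in escaper 2 and −0.23 in escaper 1, against −0.60 to −0.15 in affected dogs. Escaper 1 thus lay within the affected range. The part of endothelial cells in the FCGRT difference was not tested.

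TYROBP, also called DAP12, is the adaptor that relays signals of TREM receptors, and it differed widely between dogs of a group. Its log2 ratio was −0.28 and 1.49 in escapers, −1.98, −0.52, −0.63 and 0.29 in affected dogs, and −0.44, −0.54, −0.05 and −0.06 in normal dogs. Affected 1 was the lowest dog and escaper 2 the highest. Escapers differed from affected dogs by 1.31 ± 0.60 (limma adjusted p = 0.80), affected from normal dogs by −0.44 ± 0.49 (adjusted p = 0.724), and escapers from normal dogs by 0.88 ± 0.60 (adjusted p = 0.446). For all 6 dystrophic dogs the difference was 0.001 ± 0.52, the smallest of the 27.

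ITGAM and ITGB2 are the alpha and beta chains of the complement receptor Mac-1 on macrophages and neutrophils. ITGAM was −0.68 and 0.48 in escapers, −0.82, −0.94, −0.56 and −0.07 in affected dogs, and −1.74, −1.17, −1.13 and −1.10 in normal dogs. Its 6 dystrophic values lay above all 4 normal values, although affected 2 was only 0.16 above normal 4. The ITGAM probe was above background on 3 of 4 escaper, 5 of 8 affected and 1 of 8 normal arrays. That 1 normal array was the outlier spot left out of normal 2, so the normal values are all at background. Affected 2 was not above background on either array, so its gap to normal 4 lies between values at background. Affected 3 and escaper 1 were above background on 1 array each. With the spot kept normal 2 was at −0.47, inside the dystrophic range. The fitted difference from these normal values was 0.85 ± 0.27 SE in dystrophic dogs (limma adjusted p = 0.166), 1.19 ± 0.35 in escapers (adjusted p = 0.193) and 0.69 ± 0.29 in affected dogs (adjusted p = 0.376). A second ITGAM probe, above background on 1 of 20 arrays, was not tested.

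ITGB2 pairs with several alpha chains on leucocytes and was above background on all 20 arrays. It was −0.69 and 0.45 in escapers, −0.95, −0.86, −1.15 and −0.56 in affected dogs, and −1.25, −0.80, −1.0 and −1.06 in normal dogs. Both escapers were above all normal dogs, while 1 of 4 affected dogs was. Escapers differed from normal dogs by 0.91 ± 0.30 (limma adjusted p = 0.202) and from affected dogs by 0.76 ± 0.30 (adjusted p = 0.80). In the comparison with affected dogs ITGB2 had the smallest p of the 27 genes. Affected dogs differed from normal by 0.15 ± 0.24 (adjusted p = 0.818).

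Among membrane proteins of endosomes and lysosomes, CD68 stayed close to normal. This widely used macrophage marker was 0.07 and 0.57 in escapers, −0.17, 0.49, 0.27 and −0.08 in affected dogs, and 0.03, −0.14, −0.07 and −0.05 in normal dogs. Escaper 2 and affected 2 were highest, and affected 1 lay below all normal dogs. The difference from normal was 0.38 ± 0.22 in escapers (limma adjusted p = 0.366), 0.19 ± 0.18 in affected dogs (adjusted p = 0.68) and 0.25 ± 0.16 in all dystrophic dogs (adjusted p = 0.422).

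LAPTM5, a lysosomal membrane protein of blood cells, was −1.25 and 1.36 in escapers, −1.77, −1.05, −1.25 and −0.15 in affected dogs, and −1.78, −1.66, −1.58 and −2.06 in normal dogs. Both escapers and 3 of 4 affected dogs were above all normal dogs. Escapers differed from normal by 1.82 ± 0.63 (limma adjusted p = 0.209), affected dogs by 0.71 ± 0.51 (adjusted p = 0.588) and all dystrophic dogs by 1.08 ± 0.51 (adjusted p = 0.299). Of 2 dimmer LAPTM5 probes, one gave differences of the same sign in every comparison, and the dimmest was not above background on any normal array and had a difference of −0.0026 in affected dogs.

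GPNMB, a glycoprotein of macrophages that have taken up lipid or debris, separated the 2 escapers most, at −2.07 and 1.99, a gap of 4.06 log2 units. It was −2.62, −1.84, −1.90 and −0.99 in affected dogs, and −2.68, −2.38, −2.56 and −2.93 in normal dogs. The GPNMB probe was above background on every dystrophic array but on only 3 of 8 normal arrays, so the normal values lie near background. Escapers differed from affected dogs by 1.80 ± 0.88 (limma adjusted p = 0.80), a difference that turned to −0.23 without escaper 2. The difference from normal was 2.6 ± 0.88 in escapers (adjusted p = 0.205) and 0.80 ± 0.72 in affected dogs (adjusted p = 0.661). The scavenger receptor MSR1, which binds modified lipoproteins, was above background on 2 of 4 escaper, 2 of 8 affected and 0 normal arrays. Its difference in log2 ratio from normal was 0.72 ± 0.42 in escapers (adjusted p = 0.373) and −0.03 ± 0.34 in affected dogs (adjusted p = 0.978).

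Siglecs are receptors for sialic acid on leucocytes, and the 3 that were tested differed in direction. SIGLEC5 was above background on 4 of 4 escaper, 5 of 8 affected and no normal arrays. Its difference in log2 ratio from normal was 1.32 ± 0.51 in escapers and 0.56 ± 0.41 in affected dogs (limma adjusted p = 0.23 and 0.60). SIGLEC1, the sialoadhesin of resident macrophages, was above background on every array, and its values were −0.10 and −0.19 in escapers, between −0.25 and 0.11 in affected dogs, and between −0.02 and 0.12 in normal dogs. Its difference from normal was −0.21 ± 0.15 in escapers (adjusted p = 0.466). SIGLEC15, known from osteoclasts and their precursors, was highest in affected 1 at 0.67 and between −0.34 and 0.15 in the other 9 dogs. The SIGLEC15 probe was above background on 1 of 8 normal arrays.

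**Figure D3:**
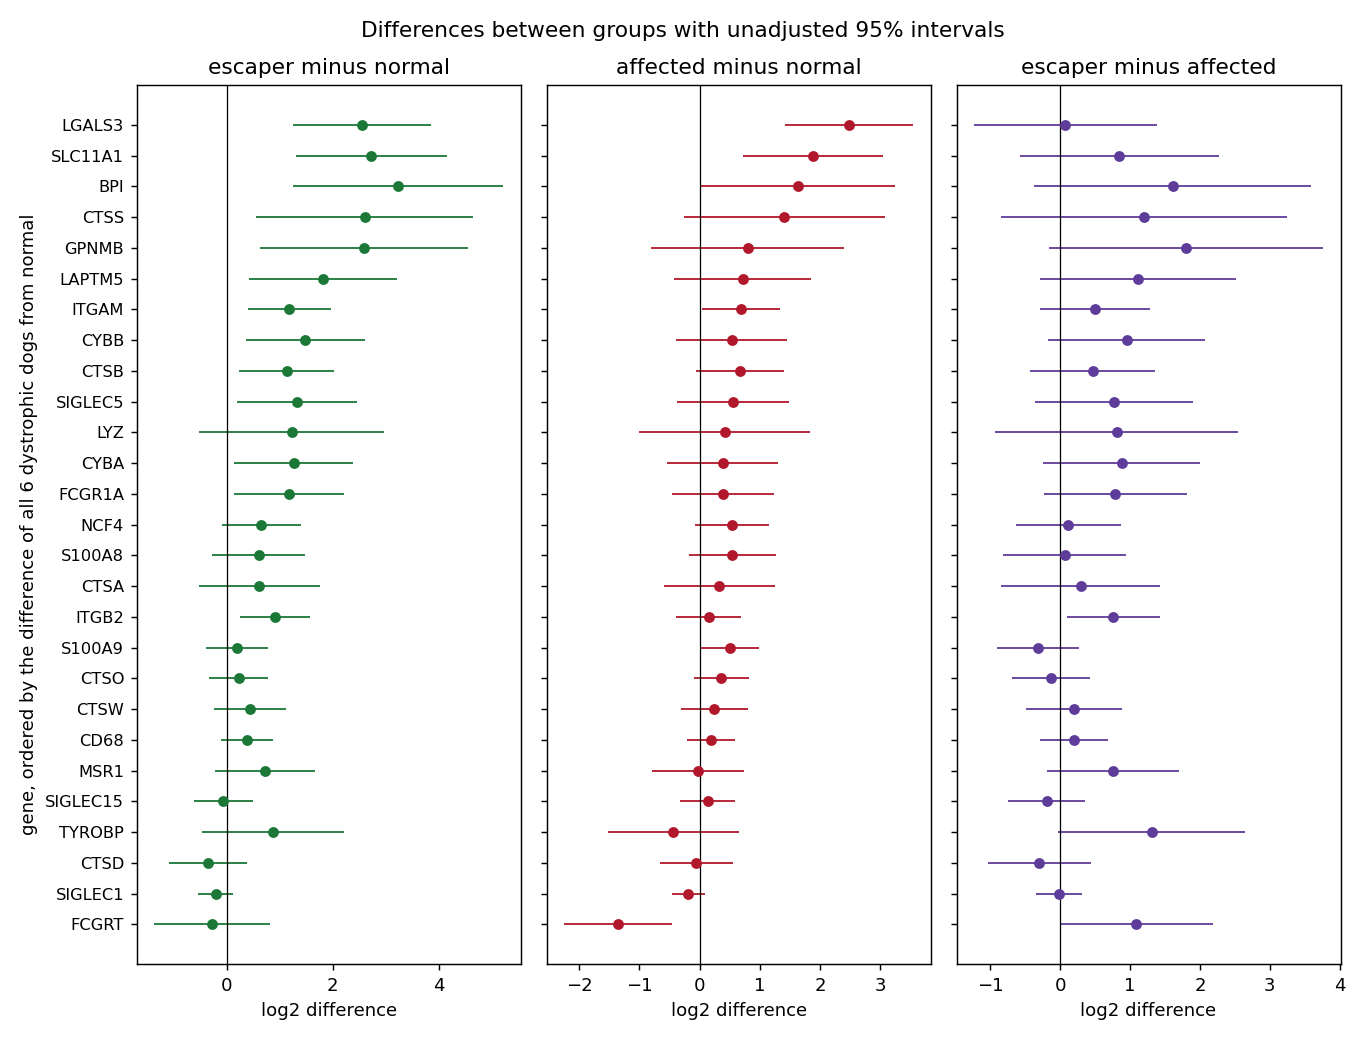
Log2 difference of each of the 27 tested genes with its unadjusted 95% interval (limma), for escapers minus normal, affected minus normal and escapers minus affected, with genes ordered by the dystrophic difference from normal. LGALS3 and SLC11A1 have intervals above 0 against normal in both groups, FCGRT has one below 0 in affected dogs, and no difference passed the adjusted threshold. FCGR1A, SIGLEC5, MSR1 and CTSO were not above background on any normal array, nor ITGAM on any normal array used, so the normal values of these genes are at background. GPNMB, CYBB, NCF4, CTSW and SIGLEC15 were above background on 3, 3, 2, 1 and 1 of 8 normal arrays.

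Cathepsins are lysosomal proteases. CTSS, the cysteine protease that trims the invariant chain of MHC class II, was −1.39 and 2.20 in escapers, −2.12, −0.75, −0.96 and 0.65 in affected dogs, and −2.30, −1.88, −2.01 and −2.62 in normal dogs. All dystrophic dogs but affected 1 were above all normal dogs. Dystrophic dogs were 3.50-fold above normal (log2 difference 1.81 ± 0.71 SE, limma adjusted p = 0.224), escapers by 2.61 ± 0.91 (adjusted p = 0.212) and affected dogs by 1.41 ± 0.75 (adjusted p = 0.474). The gap between the escapers was 12-fold.

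CTSB, a cysteine protease of many cell types, was −1.45 and 0.24 in escapers, −0.90, −1.49, −1.22 and −0.68 in affected dogs, and −1.85, −1.75, −1.54 and −1.80 in normal dogs. Every dystrophic dog was above every normal dog, with affected 2 nearest, but affected 3 rests on 1 array, and with its outlier spot kept it was at −1.64, below normal 3. Dystrophic dogs differed from normal by 0.82 ± 0.30 (1.77-fold, limma adjusted p = 0.21), escapers by 1.13 ± 0.40 (adjusted p = 0.213) and affected dogs by 0.67 ± 0.33 (adjusted p = 0.442). A second CTSB probe gave 0.80 ± 0.26 in dystrophic dogs (adjusted p = 0.171), with affected 3 inside the normal range.

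The other cathepsins stayed nearer to normal. CTSA, a carboxypeptidase that protects lysosomal sialidase, was 0.49 and 1.19 in escapers and ranged between −0.61 and 1.39 in affected dogs and between −0.16 and 0.72 in normal dogs. CTSD, the main aspartic protease of lysosomes, was −0.34 and −0.50 in escapers, 0.74, −0.53, −0.32 and −0.36 in affected dogs, and 0.31, −0.20, −0.21 and −0.16 in normal dogs. Thus 5 of 6 dystrophic dogs were below all normal dogs for CTSD and affected 1 was above them. The cysteine protease CTSO was not above background on any normal array. Its difference in log2 ratio from normal was 0.23 ± 0.25 in escapers and 0.36 ± 0.20 in affected dogs (limma adjusted p = 0.637 and 0.491). The escapers differed, with escaper 2 at 0.72 and escaper 1 at −0.12, below all normal dogs. CTSW, a cathepsin of cytotoxic lymphocytes, was highest in escaper 2 at 1.05, against −0.19 in escaper 1, −0.09 to 0.55 in affected dogs and −0.11 to 0.10 in normal dogs. The CTSW probe was above background on 1 of 8 normal arrays.

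CYBA and CYBB form the membrane core of the phagocyte NADPH oxidase, and NCF4 is one of its cytosolic subunits. CYBB was −0.72 and 1.25 in escapers, −1.26, −0.64, −0.98 and 0.12 in affected dogs, and −1.28, −0.98, −1.30 and −1.34 in normal dogs. Both escapers and 2 affected dogs were above all normal dogs. The CYBB probe was above background on 3 of 8 normal arrays. Escapers differed from normal by 1.49 ± 0.50 (limma adjusted p = 0.205), affected dogs by 0.53 ± 0.41 (adjusted p = 0.613), and escapers from affected dogs by 0.95 ± 0.50 (adjusted p = 0.80). CYBA showed the same order of dogs at the top, with 1.15 in escaper 2 and 0.16 in affected 4, against −1.24 to −0.83 in normal dogs. NCF4 was 0.97 in escaper 2 and 0.98 in affected 4, against −0.27 to −0.06 in normal dogs, and its dystrophic difference was 0.58 ± 0.24 (adjusted p = 0.244). Its probe was above background on 2 of 8 normal arrays, so the normal values of CYBB and NCF4 lie near background.

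Of the secreted antimicrobial proteins, BPI had the widest range over the dogs. BPI, a granule protein that binds bacterial endotoxin, was −1.45 and 1.73 in escapers, −2.90, −1.31, −1.76 and 0.10 in affected dogs, and −3.16, −3.05, −2.69 and −3.47 in normal dogs. All dystrophic dogs but affected 1 were above all normal dogs. Escapers were 9.41-fold above normal (log2 difference 3.23 ± 0.89 SE, limma adjusted p = 0.189), all dystrophic dogs 4.48-fold (2.16 ± 0.73, adjusted p = 0.18) and affected dogs 3.09-fold (1.63 ± 0.73, adjusted p = 0.401). A second, dim BPI probe, above background on 5 of 20 arrays, differed by 0.24 ± 0.32 in escapers from normal dogs and by −0.03 ± 0.32 in escapers from affected dogs.

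LYZ, lysozyme, cleaves bacterial cell walls. It was −1.13 and 2.01 in escapers, between −1.24 and 0.86 in affected dogs, and between −1.10 and −0.46 in normal dogs, so that the escapers stood on either side of the normal range. Its difference from normal was 1.23 ± 0.78 in escapers (limma adjusted p = 0.413) and 0.42 ± 0.64 in affected dogs (adjusted p = 0.803).

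S100A8 and S100A9 together form calprotectin, which neutrophils and young monocytes carry. S100A8 was −1.57 and −0.69 in escapers, −0.39, −1.33, −1.56 and −1.50 in affected dogs, and −1.56, −1.29, −1.82 and −2.28 in normal dogs. S100A9 was 0.12 and 0.32 in escapers, 1.13, 0.14, 0.63 and 0.24 in affected dogs, and 0.09, 0.22, −0.07 and −0.12 in normal dogs. For both, affected 1 was the highest of the 10 dogs. S100A8 differed from normal by 0.54 ± 0.32 in affected dogs (limma adjusted p = 0.515), 0.61 ± 0.39 in escapers (adjusted p = 0.422) and 0.56 ± 0.28 in all dystrophic dogs (adjusted p = 0.317). S100A9 differed by 0.51 ± 0.21 in affected dogs (adjusted p = 0.382), 0.19 ± 0.26 in escapers and 0.40 ± 0.20 in all dystrophic dogs.

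The 13 genes that were not tested were above background in dog RNA on at most 3 of 20 arrays. Among them were the receptor for colony-stimulating factor CSF1R (3 arrays, of which 2 were of escapers), the transcription factor SPI1, also called PU.1 (3 arrays), the Fc receptor gamma chain FCER1G (2 arrays), the IgG receptor FCGR3A (2 arrays), the oxidase subunit NCF1 (1 array), SIGLEC10 (1 array) and the platelet receptor TREML1 (2 arrays). MS4A2, the beta chain of the mast cell IgE receptor, was above background on 3 arrays. CTSE, the B cell marker MS4A1 (CD20), MS4A4A and MS4A5 were above background on none. FCGR3A was above background on 15 arrays in the channel of the reference RNA. The difference of CSF1R in log2 ratio from normal dogs, where it was not above background, was 0.34 in escapers and 0.18 in affected dogs. Its 2 escaper arrays above background were both of escaper 2, at 0.54. Escaper 1, at −0.22, was at background and within the normal values of −0.29 to −0.07.

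Probes found by their description rather than their gene name, after the file was read, add several related genes. CD163, the haemoglobin scavenger receptor of macrophages, was −2.37 and 0.23 in escapers, −1.76, −2.19, −2.11 and −0.67 in affected dogs, and −2.75, −2.86, −2.60 and −3.86 in normal dogs. All dystrophic dogs were above all normal dogs, and the difference was 1.54 ± 0.50 (2.90-fold, limma adjusted p = 0.174). The cathepsins CTSH and CTSZ were above all normal dogs in both escapers. The group means differed by 1.30 ± 0.43 (adjusted p = 0.204) and, for the brighter of 2 CTSZ probes, 1.04 ± 0.37 (adjusted p = 0.213). The collagen-cleaving CTSK was 1.0 in escaper 2 and 0.33 in affected 4, against −1.14 to −0.39 in normal dogs, and CTSF differed by −0.07 ± 0.16 in dystrophic dogs. The mannose receptor MRC1 was above background on all escaper arrays, 7 of 8 affected arrays and no normal array. Its difference in log2 ratio from normal was 0.67 ± 0.41 in escapers (adjusted p = 0.402) and 0.09 ± 0.34 in affected dogs (adjusted p = 0.926). S100A12 was highest in affected 1, at −0.49, and the scavenger receptor MARCO was above background on 4 of 20 arrays.

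Within the escapers and the affected group, single dogs lay far apart. Escaper 2 was the highest of all 10 dogs for 18 of the 27 genes (66.7%), beside 25.6% of all genes. Its median log2 ratio over the 27 genes was 0.97, against −0.69 in escaper 1, 0.10 in affected 4, −0.90 to −0.63 in the other affected dogs and −1.06 to −0.60 in normal dogs. Escaper 2 was above escaper 1 for 25 of 27 genes, by a median of 1.61, beside 52% of all genes and a median of 0.04. The exceptions were CTSD and SIGLEC1. Of the 27 genes, 14 were not above background on every normal array. Such genes could enter these counts and medians through the dogs where they were high. MSR1, for instance, was above background only in affected 4 and escaper 2. Relative to the normal mean, the median over the 27 genes was 1.76 in escaper 2, 1.06 in affected 4, 0.38 in affected 3, 0.35 in affected 2, 0.27 in escaper 1 and 0.01 in affected 1.

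With escaper 2 as the 1 escaper left, 17 of the 27 genes passed the adjusted threshold against normal dogs and 11 against affected dogs, in a fit that lets that dog vary like the other groups. Without escaper 2 no gene passed in either comparison, the median difference of escapers was 0.27 from normal dogs and −0.19 from affected dogs, and TYROBP, GPNMB and CYBB changed sign in comparisons of the escapers. The median SD between dogs over the 27 genes was 1.14 in escapers, 0.55 in affected dogs and 0.21 in normal dogs, beside 0.34, 0.32 and 0.17 over all genes. Normal 4 was the lowest of all dogs for 10 of the 27 genes (37%), beside 10.8% of all genes. Affected 1 was lowest for 7 (25.9%), beside 18%, and normal 1 for 5 (18.5%), beside 7.25%. In normal dogs, 22 of the 27 genes averaged below the reference RNA, and 13 of them by over 1 log2 unit, beside 57% and 5.16% of all genes.

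**Figure D4:**
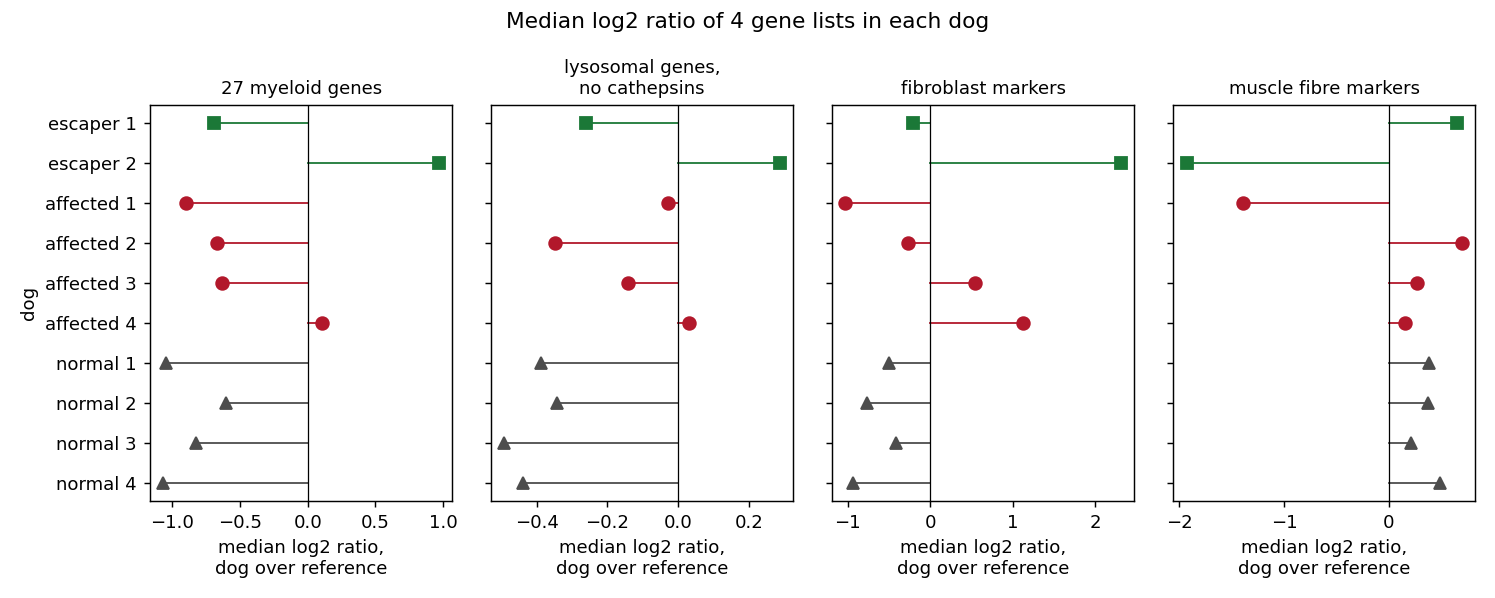
Median log2 ratio of dog over common reference in each dog for the 27 tested myeloid genes, 22 other lysosomal genes, 12 fibroblast markers and 9 muscle fibre markers, each panel with its own axis. Escaper 2 has the highest medians in the first 3 panels and the lowest in the last, while affected 1 has low myeloid and fibroblast medians together with a low muscle fibre median.

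Markers of other cells were high or low in the same dogs. The 12 fibroblast markers, all of 12 measured, had a median log2 ratio of 2.31 in escaper 2, 1.13 in affected 4, 0.55 in affected 3, −0.22 in escaper 1, −0.27 in affected 2, −1.03 in affected 1 and −0.93 to −0.42 in normal dogs. Their summed level on the log2 intensity scale was 14.1 to 17.3 in escapers, 13.0 to 15.8 in affected dogs and 12.8 to 13.5 in normal dogs. COL1A2 and COL3A1, chains of fibrillar collagen, differed by 2.30 ± 0.86 and 2.49 ± 0.95 in dystrophic from normal dogs (limma adjusted p = 0.213 and 0.22). The 9 muscle fibre markers had their lowest medians in escaper 2 (−1.93) and affected 1 (−1.39), against 0.66 in escaper 1, 0.16 to 0.70 in the other affected dogs and 0.21 to 0.49 in normal dogs. PYGM, the glycogen phosphorylase of muscle, and myoglobin (MB) differed by −2.08 ± 0.57 and −1.91 ± 0.85 in dystrophic from normal dogs (adjusted p = 0.136 and 0.272). The part of fibroblasts and fibre loss in the myeloid values was not tested.

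Lymphocyte markers were sparse. Of 16 T and NK cell genes, 2 were measured, CD7 and NKG7, and their differences in dystrophic from normal dogs were −0.0074 ± 0.13 and −1.32 ± 0.52 (limma adjusted p = 0.984 and 0.226). Their summed level on the log2 intensity scale was high in normal dogs, at 15.7 to 16.1. Their median log2 ratio was lowest in affected 1 (−1.29) and escaper 2 (−0.66), which also had the lowest muscle fibre medians. Whether these probes report lymphocytes was not tested. Of 9 B and plasma cell genes, only JCHAIN, which joins antibody chains, was measured, at 2.78 in escaper 2, 0.90 in escaper 1, 0.51 to 1.83 in affected dogs and 0.46 to 1.37 in normal dogs. Of 12 mast cell and granulocyte genes, 3 were measured, and CPA3, a mast cell protease, differed by 0.50 ± 0.25 and the granule protein LTF by −0.05 ± 0.11 in dystrophic dogs. Among 8 endothelial markers, KDR and TIE1 differed by −0.66 ± 0.31 and −0.18 ± 0.21, and among 7 adipocyte markers CFD and LPL differed by 1.14 ± 0.39 and −0.55 ± 0.55. No red blood cell gene was measured.

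Of other macrophage pathways, no gene passed the adjusted threshold in any comparison. The complement genes C1QA, C1QB and C1QC, which macrophages make, differed by 1.27 ± 0.50, 1.19 ± 0.45 and 1.05 ± 0.47 in dystrophic from normal dogs, and the list's differences were above 0 for 4 of 4 measured genes of 7, beside 54.9% of all genes. Of 22 measured lysosomal genes outside the cathepsins, of 29 listed, 20 differences were above 0, beside 54.9% of all genes. Their median was 0.42, beside 0.04 over all genes. GLB1 (beta-galactosidase) differed by 0.75 ± 0.20, CD63 (a membrane protein of late endosomes) by 0.79 ± 0.24 and LGMN (the protease legumain) by 1.25 ± 0.39, with adjusted p of 0.128, 0.154 and 0.162. Of the cathepsin inhibitors, 3 of 7 were measured, and SERPINB1 differed by 1.40 ± 0.35 (adjusted p = 0.119), CSTB by 1.59 ± 0.41 (adjusted p = 0.128) and CST6 by 0.24 ± 0.17.

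Genes of repair macrophages and lipid handling had differences above 0 in dystrophic dogs for 8 of 8 measured genes, of 17 listed, beside 54.9% of all genes. FOLR2, the folate receptor of resident macrophages, differed by 1.70 ± 0.55 (limma adjusted p = 0.17), the growth factor IGF1 by 1.05 ± 0.38 (adjusted p = 0.205) and the cholesterol exporter ABCA1 by 0.59 ± 0.28 (adjusted p = 0.291). For FOLR2 and IGF1 all dystrophic dogs were above all normal dogs, beside 4.12% of all genes. Of 6 measured leucocyte cytoskeleton and surface genes 5 were above 0, beside 54.9% of all genes. Among them were the integrin chain ITGB1 (0.80 ± 0.32), the actin-capping CAPG (0.90 ± 0.38) and the costimulatory CD86 (1.35 ± 0.66).

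Pattern receptors, signalling genes and transcription factors were mixed. In dystrophic against normal dogs 54.9% of all genes were above 0, and the counts for the next 2 lists were near that share. Of 5 Toll-like and lectin receptor genes 3 were above 0, with TLR2 at 0.99 ± 0.51, the adaptor MYD88 at 0.23 ± 0.13 and the fatty acid receptor CD36 at −0.30 ± 0.15. Of 3 signalling genes 2 were above 0, LCP2 (0.79 ± 0.32) and BTK (0.42 ± 0.35), and BLNK was at −0.02 ± 0.23. Among 5 transcription factors, MITF differed by −0.58 ± 0.18 (limma adjusted p = 0.162), TFEC by 0.43 ± 0.28 and IRF5 by 0.21 ± 0.19. The eicosanoid genes PTGS1, ALOX5AP and TBXAS1 differed by 0.41 ± 0.35, 0.18 ± 0.25 and 0.20 ± 0.28, and none of the listed colony-stimulating factors and their receptors was measured.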

How the data were processed

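The arrays are Agilent canine 2-colour arrays, read with Agilent's Feature Extraction software, version 9.5.3.1 per the file headers. Mean, background and processed intensity per spot are as deposited, per the file headers. The authors' deposited value table holds log2 ratios of dog over reference with r = 1 to those of the processed signals, which settles scale and direction, uncentred (column medians −0.16 to 0.25), and served as an alternative. Mean signals were corrected with normexp (offset 50) and loess in limma 3.58.1 (R 4.3.3), with control spots at weight 0 and outlier spots left out, turned to dog over reference and averaged per dog. A probe was tested if both arrays of at least 2 dogs showed the dog's RNA well above background and every dog had a value (16008 probes). A gene is represented by its brightest tested probe. A limma fit over 3 groups, and one of dystrophic against normal dogs, used Benjamini-Hochberg adjustment over the tested probes; both were tested on simulated data. Symbols were updated through RefSeq's gene table (assembly UU_Cfam_GSD_1.0), for names alone. Genes of the rule are named, except 1 that is not reported here, with every dog's value for preset genes and those of smallest p, and the 2 or 3 of smallest p of each other list. Genes, lists and rules were chosen with earlier results of these data known. The p-values rest on the spread between dogs, taken as shared by the groups of a fit although it differed between them. The number of dogs limits the precision. Alternatives are given in the closing section.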

Additional observations from a re-analysis of the deposited data

Results flagged for a closer look

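Within the groups of 4 dogs, a dog far from the other 3 was sought for each tested gene, and 4 of 54 gene and group pairs had one, where chance gives about 1 in 20. CTSD was 0.74 in affected 1, against −0.32 in the nearest affected dog, and 0.31 in normal 1, against −0.16 in the nearest normal dog. ITGAM was −1.74 in normal 1, against −1.17 in the nearest normal dog, and NCF4 was −0.058 in normal 4, against −0.24 in the nearest. All are log2 ratios of dog over reference.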

How the results depend on the processing

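The counts and medians over the tested genes depended on the processing and on single dogs, and the cause was not tested. The number of genes past the adjusted threshold, 0 in each comparison, became 1 in affected dogs with slide as a random block or with only the dogs compared, and 3 in escapers with the slide block. In dystrophic dogs it became 2 with the scanner's processed signals or the deposited table, and 1 with the slide block, with the filter on all 20 arrays or with the dog in Cy5 only. The block's estimated correlation was −0.27 in the fit with 3 groups and −0.11 in the fit with dystrophic and normal dogs. Values below 0 mean that, within a group of the fit, dogs on 1 slide tended to differ more than dogs on different slides. In the fit with 3 groups this cannot be read for the escapers, because both shared a slide. Leaving out 1 dog at a time gave 0 to 17 in escapers against normal (17 without escaper 1), 0 to 11 in escapers against affected, 0 to 2 in dystrophic and 0 in affected dogs.

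Genes above all normal dogs, 4 in affected, 13 in escapers and 4 in dystrophic dogs, numbered 10 (affected) and 10 (dystrophic) with processed signals and 12 and 11 with the deposited table. They numbered 2 and 2 with outlier spots kept, an alternative chosen after seeing the data, 2 and 2 with the dog in Cy5 only, and 1 and 0 with the dog in Cy3 only. In escapers they numbered 7 with median centring, 7 with the filter on all 20 arrays (12 genes left) and 7 with the dog in Cy3 only. Escapers were above all affected dogs for 1 gene, and for 0 with median centring or the dog in Cy3 only and 2 without the Cy5 array of affected 4, an alternative chosen after seeing the data. With 1 dog left out the counts ranged between 4 and 12 in affected, 13 and 23 in escapers, 4 and 10 in dystrophic dogs, and 1 and 19 for escapers against affected.

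The median difference was 1.04 in affected dogs with processed signals, and 1.09 in affected, 1.53 in escapers and 1.16 in dystrophic dogs with the deposited table. With 1 dog left out it ranged between 0.26 and 0.61 in affected, 0.27 and 1.76 in escapers, 0.37 and 0.68 in dystrophic dogs, and −0.19 and 1.35 for escapers against affected. Single genes changed sign. ITGB2 in affected dogs was −0.029 with the dog in Cy3 only. The dystrophic difference of TYROBP was −0.14 with processed signals, −0.11 with median centring, −0.087 with the deposited table, −0.0017 with the dog in Cy5 only and −0.0059 without the Cy5 array of affected 4. With 1 dog left out TYROBP ranged between −0.35 and 0.34 in dystrophic dogs and −0.0099 and 1.76 in escapers, and GPNMB between −0.23 and 3.83 and CYBB between −0.033 and 1.94 for escapers against affected. Over all probes, 3, 0, 0 and 17 passed for affected, escapers, escapers against affected and dystrophic dogs, and up to 114, 522, 0 and 302 under other settings, or 22, 3920, 1755 and 178 with 1 dog left out.

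No paired analysis was possible because the labels give the groups no shared replicate numbers. The limits are 2 escapers on 1 slide, 2 to 6 dogs a group, no muscle named, and probes near background for 13 genes. A fit without both affected 1 and escaper 2 was also tried and is not given, because those dogs had been picked by measured values.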
